A study of Homo sapiens with 6 samples.

Results

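Bidirectional protein-coding promoters are stretches of DNA from which 2 protein-coding genes are transcribed away from each other. The regions described here were chosen by position alone. All peaks of 6 bulk ATAC-seq libraries of GM12878 cells were merged into 56447 accessible regions. A region was kept if it overlapped the interval between the starts of 2 autosomal protein-coding genes on opposite strands that point away from each other and begin at most 1000 bp apart, in the gene records of GENCODE version 44 on hg19. This gave 720 regions, 1.28% of all. They lay at 766 of the 859 such gene pairs in the annotation, and the other 93 pairs had no peak in any library. The 859 pairs hold 1656 genes, 8.61% of the 19229 autosomal protein-coding genes. The starts of a pair lay 1 to 995 bp apart, with a median of 130 bp. Of the 720 regions, 53 served more than 1 annotated pair, and 9 pairs had 2 separate regions.

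A bidirectional promoter drives 2 divergent genes from a shared stretch of open chromatin. Most such promoters lie in CpG islands, lack a TATA box and carry binding sites of broadly expressed factors, and their genes often serve housekeeping tasks such as DNA repair, chromatin packing and mitochondrial function. Histone genes are a classic case, in which an H2A and an H2B gene start back to back. ATAC-seq marks open chromatin with the Tn5 transposase, which inserts sequencing adapters where DNA is not wrapped or covered, so an active promoter gives a peak over the nucleosome-free stretch at the start.

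GM12878 is a human lymphoblastoid cell line, that is B lymphocytes immortalised with Epstein-Barr virus. The cells of all 6 libraries were fixed in 1% PFA, transposed for 30 min at 37 °C and then heated overnight at 65 °C with proteinase K to reverse the crosslinks, and no antibody was used. By the labels, the 3 protocols differed in the last step, with 2 replicate libraries each. The old buffer contained SDS, and its DNA was cleaned up before PCR. The new buffer was free of SDS, and its DNA was either cleaned up as well ("purified new buffer") or taken straight into PCR ("unpurified"). The labels give the same lysis in 0.05% Igepal CA-630 and the same stop with 40 mM EDTA for all 6. The paper's bulk methods name this lysis and stop only for the workflow without purification, and the normal ATAC-seq protocol for the SDS buffer. Earlier steps may therefore have differed as well. All libraries come from 1 cell line, and no label says whether replicates were separate cultures, so p-values measure only the spread between these libraries.

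The DNA between the starts is only a part of each promoter, and a binding site absent from it can lie elsewhere in the same promoter. The sequences below are the bases between the 2 start positions, on the plus strand of hg19, with the minus-strand gene named first. Capitals mark exact matches, on either strand, to the core of the CCAAT box that NFY binds (CCAAT), the GC box that SP factors bind (GGGCGG), the ETS site (CCGGAAG), the NRF1 site (GCATGCGC), the CRE (TGACGTCA) and the TATA box (TATAAA). The first set holds pairs that are known from textbooks and had a peak in all 6 libraries. Between the starts of these pairs lie repeated CCAAT boxes, GC boxes, an ETS or NRF1 core, or none of these:
RECQL/GOLT1B (chr12:21654604-21654714): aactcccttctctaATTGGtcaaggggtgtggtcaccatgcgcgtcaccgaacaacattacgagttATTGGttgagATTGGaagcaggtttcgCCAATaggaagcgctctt
SARS2/MRPS12 (chr19:39421404-39421583): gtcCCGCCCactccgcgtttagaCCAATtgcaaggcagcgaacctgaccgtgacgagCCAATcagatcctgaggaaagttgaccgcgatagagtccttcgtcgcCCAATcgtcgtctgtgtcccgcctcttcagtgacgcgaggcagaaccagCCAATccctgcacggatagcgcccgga
PPAT/PAICS (chr4:57301782-57301906): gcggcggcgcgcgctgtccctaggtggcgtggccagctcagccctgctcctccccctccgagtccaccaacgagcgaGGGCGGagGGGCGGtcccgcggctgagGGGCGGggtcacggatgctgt
TOP3A/SMCR8 (chr17:18218322-18218606): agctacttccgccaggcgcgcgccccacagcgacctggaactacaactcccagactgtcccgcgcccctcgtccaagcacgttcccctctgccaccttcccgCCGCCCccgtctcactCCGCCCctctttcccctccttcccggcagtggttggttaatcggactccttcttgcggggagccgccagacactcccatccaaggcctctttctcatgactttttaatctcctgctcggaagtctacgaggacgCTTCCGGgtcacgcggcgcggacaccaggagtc
PREPL/CAMKMT (chr2:44589002-44589085): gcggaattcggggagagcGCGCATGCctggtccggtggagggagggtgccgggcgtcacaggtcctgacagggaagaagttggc
TCP1/MRPL18 (chr6:160210736-160210843): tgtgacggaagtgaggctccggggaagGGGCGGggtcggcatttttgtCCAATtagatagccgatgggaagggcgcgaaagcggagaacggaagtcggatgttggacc
SIRT3/PSMD13 (chr11:236932-236965): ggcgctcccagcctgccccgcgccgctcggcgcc

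The next sequence belongs to 1 of the 5 members with the highest mean −log10 q:
FHIP1B/CNGA4 (chr11:6255942-6255994): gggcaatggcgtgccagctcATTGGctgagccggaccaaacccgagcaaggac

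The following set holds members called in part of the libraries, which are described further below:
TMEM258/FEN1 (chr11:61560275-61560382): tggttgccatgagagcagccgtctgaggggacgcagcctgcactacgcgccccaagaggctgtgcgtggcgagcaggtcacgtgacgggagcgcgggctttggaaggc
COL4A4/COL4A3 (chr2:228029170-228029339): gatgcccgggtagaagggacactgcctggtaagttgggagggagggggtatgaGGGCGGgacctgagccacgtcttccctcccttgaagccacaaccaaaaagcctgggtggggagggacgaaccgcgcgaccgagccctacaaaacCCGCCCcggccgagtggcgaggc
AREL1/FCF1 (chr14:75179821-75179846): tttgCCGGAAGcagtatgtgaatgac
RGS19/OPRL1 (chr20:62711342-62711434): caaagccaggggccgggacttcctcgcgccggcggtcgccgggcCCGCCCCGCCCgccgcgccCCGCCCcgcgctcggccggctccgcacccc
OXLD1/CCDC137 (chr17:79633666-79633766): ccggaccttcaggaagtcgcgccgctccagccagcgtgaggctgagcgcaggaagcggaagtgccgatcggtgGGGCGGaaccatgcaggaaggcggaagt

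A histone pair, chosen after its values were seen, shows 5 CCAAT boxes, a CRE and a TATA box in 244 bases:
H2AC14/H2BC14 (chr6:27782556-27782799): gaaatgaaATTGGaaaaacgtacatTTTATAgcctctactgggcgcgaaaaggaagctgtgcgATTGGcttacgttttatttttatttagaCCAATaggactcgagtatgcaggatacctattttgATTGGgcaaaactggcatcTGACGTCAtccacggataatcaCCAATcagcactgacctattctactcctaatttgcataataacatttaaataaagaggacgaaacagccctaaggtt

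The 6 lists held 30136 to 38023 peaks. Depth was compared through the lowest local background of each list, and the deepest library was 1.24 times as deep as the shallowest. The read pileup at each summit was recovered from the deposited fold enrichment and −log10 p, and its median over all peaks was 20 to 22 reads, so counting error alone is large for a single weak peak. The B cell label was checked on 8 marker genes. All 8 had a peak in the gene or in the 2 kb upstream in at least 1 library, and EBF1, BLK, PAX5 and MS4A1 had one in all 6. Of 6 T cell markers, 5 had no peak in any library and CD8A had one in all 6. None of 3 erythroid markers had a peak, and of 4 epithelial markers CDH1 had one in all 6 and the others had none.

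Most bidirectional promoters were open in every library. A peak overlapped the interval between the starts in all 6 libraries for 620 of the 859 pairs (72.2%), in 1 to 5 libraries for 146 pairs and in none for 93 pairs (10.8%). Of the 720 regions, 608 (84.4%) were called in all 6 libraries, where 35.5% of all 56447 regions were. This share was 83.7% for regions at pairs of a coding and a noncoding gene and 73.4% for regions at unidirectional coding starts, both described below. Only 15 regions were called in a single library. By library, a peak was present at 709 and 671 pairs in replicates 1 and 2 of the old buffer, at 720 and 688 in those of the purified new buffer and at 716 and 726 in the unpurified libraries. Both replicates numbered 2 of the purified protocols were lower than every other library. The mean was 82.1% ± 2.47 of pairs (SD, n = 6 libraries).

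Genes that share a bidirectional promoter were set beside 2 other kinds of coding gene. The first were 1369 coding genes paired in the same way with a long noncoding RNA gene, and the second were 14307 unidirectional genes with no coding or long noncoding gene start head to head within 1000 bp. The start base lay in a peak for 77.5% ± 2.12 of genes in bidirectional coding pairs (SD, n = 6 libraries), for 68.2% ± 1.48 of genes paired with a noncoding RNA and for 30.5% of unidirectional genes. Genes in pairs were higher in 6 of 6 libraries than unidirectional genes, by 47.0 percentage points on average and by 45.1 to 48.2 in single libraries (exact sign-flip permutation test over 6 libraries, p = 0.03125, the smallest it can give, adjusted p = 0.0469 over 6 tests). Against genes paired with a noncoding RNA they were higher by 9.30 points, also in 6 of 6 libraries (exact permutation p = 0.03125, adjusted p = 0.0469). The start is the outermost base of the gene record, which need not be the start used in these cells. Among CpG-rich starts alone, an alternative chosen after seeing the data, 82.9% of pair genes and 54.7% of unidirectional genes lay in a peak, a difference of 28.2 points in place of 47.0. When head-to-head pairs whose 5′ ends overlap were added to the coding pairs, the difference from noncoding pairs fell to 1.14 points and no longer passed the test (exact permutation p = 0.0625).

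The peaks at bidirectional promoters were also wider and higher than those at unidirectional starts. The median width was 646.5 and 627 bp in the old-buffer libraries, 709 and 677 bp in those of the purified new buffer and 713.5 and 700 bp in the unpurified ones. These medians exceeded those of the 5146 regions at unidirectional starts by 91.3 bp on average, and by 71.5 to 99.5 bp in single libraries (exact permutation p = 0.03125, adjusted p = 0.0469). The median summit pileup was 36.5, 32, 39, 34, 39 and 39 reads in the same order, on average 5.92 reads above unidirectional starts (exact permutation p = 0.03125, adjusted p = 0.0469). Among peaks of 40 to 60 reads at the summit, a comparison added after seeing the data, the difference in width shrank to 27 bp, between means of 772 and 745 bp, and it kept its direction in 6 of 6 libraries (exact permutation p = 0.03125). Regions at pairs of a coding and a noncoding gene, 1026 in number, were closer. Their peaks were 11.8 bp narrower on average, in 5 of 6 libraries (exact permutation p = 0.0625), and the median pileup of bidirectional coding promoters minus theirs was −0.0833 reads, with single libraries from −1 to 1 (exact permutation p = 1).

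**Figure D1:**
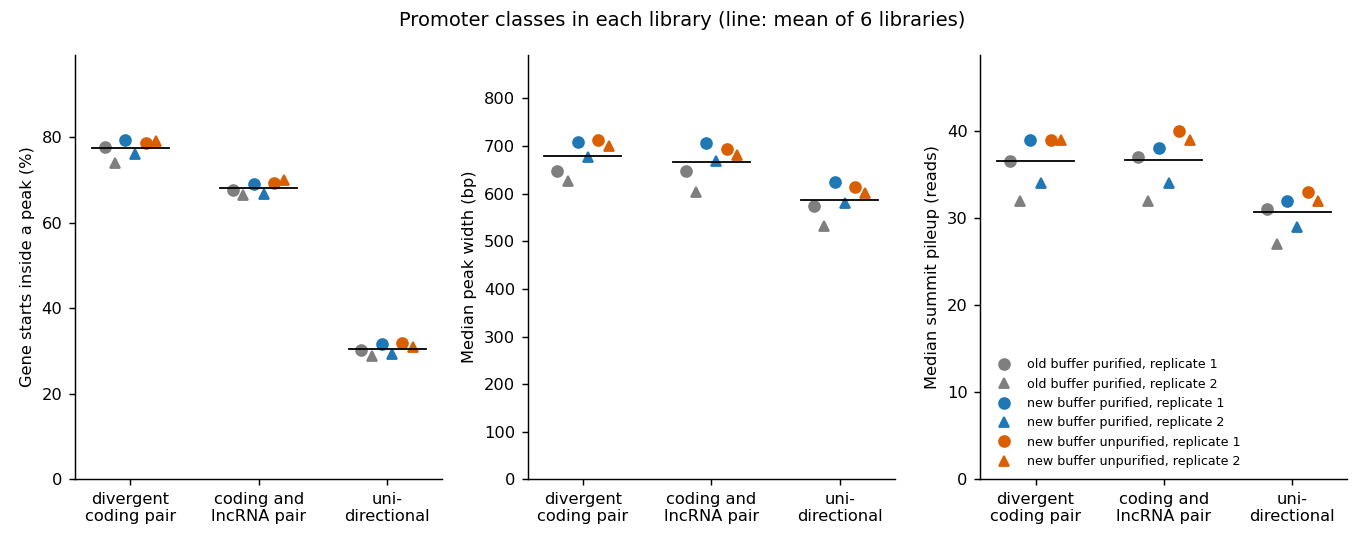
Share of gene starts inside a peak (left, %), median peak width (middle, bp) and median summit pileup (right, reads) for bidirectional coding pairs, pairs of a coding and a noncoding gene, and unidirectional coding genes. Each point is 1 library and each line the mean of 6; the bidirectional coding pairs lie above the unidirectional genes in all 6 libraries in all 3 panels, while the 2 kinds of pair overlap in width and pileup.

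The layout of the open stretch went with the distance between the starts. Of the 142 pairs at most 50 bp apart, 62.7% had a peak in all 6 libraries, and this share was 69.7% at 51 to 100 bp, 76.4% at 101 to 200 bp, 80.4% at 201 to 300 bp and 83.3% at 301 to 500 bp. It was lowest, at 56.8%, for the 74 pairs more than 500 bp apart. A longer interval gives more room for a peak to overlap it, so these shares are a description. Where a pair up to 50 bp apart had a peak, that 1 peak covered both starts in 96.3% to 99.1% of cases, by library. Beyond 500 bp 1 peak covered both starts in 28% to 33.3% of cases. All 9 pairs with 2 separate regions were 613 bp or more apart. They included PSMB1 and TBP, which encode a proteasome subunit and the TATA-binding protein and start 995 bp apart. At the other end, NOXO1 and GFER on chromosome 16 start 1 bp apart, and 1 peak covered both starts in all 6 libraries, with summit pileups of 17, 19, 21, 23, 20 and 24 reads. NEK1 and CLCN3 on chromosome 4 also start 1 bp apart, with 41, 47, 48, 45, 49 and 54 reads.

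**Figure D2:**
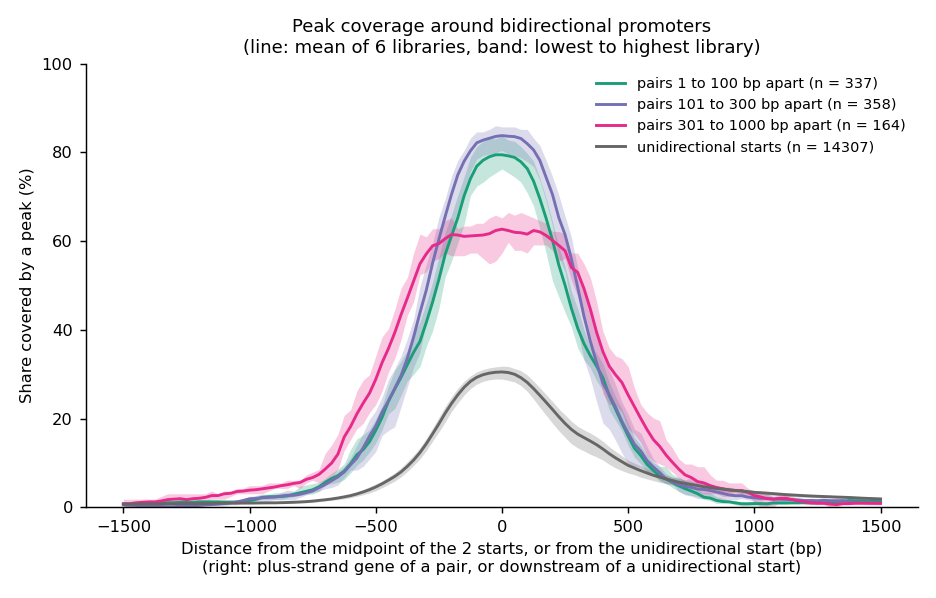
Share of sites covered by a peak (%) against the distance from the midpoint of the 2 starts, or from the start of unidirectional genes (bp), as the mean of 6 libraries with the band from the lowest to the highest library. Coverage at the midpoint was 79.5% for the 337 pairs 1 to 100 bp apart, 83.8% for the 358 pairs 101 to 300 bp apart and 62.7% for the 164 pairs further apart, whose profile is flat-topped, and 30.5% at unidirectional starts.

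Coverage fell off on both sides of the pairs. At 500 bp from the midpoint 17.4% of the closest pairs were covered on the side of the minus-strand gene and 16.1% on the side of the plus-strand gene. The first of these sides was higher in all 3 distance classes, with 28.9% against 25.3% for pairs 301 to 1000 bp apart, and this was not tested. Around unidirectional starts, coverage at 500 bp was 4.58% upstream and 9.45% downstream. For pairs 301 to 1000 bp apart, coverage stayed above 50% of its maximum from −475 to 425 bp, against −300 to 300 bp for pairs at most 100 bp apart. The width of the peak itself changed little with distance. Over 651 pairs with a region in all 6 libraries its mean width had a Pearson correlation of 0.115 with the distance and 0.690 with the summit pileup. The pairs are not independent replicates, and both measures come from the same peaks.

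The summit, the point with most reads, lay between the 2 starts for 381 of these 651 pairs (58.5%), taking the median summit over 6 libraries. This share rose from 5.26% for pairs at most 50 bp apart to 72.4% at 101 to 200 bp and 85.7% at 301 to 500 bp, as it must in part, since the interval itself grows. Measured from the nearer start, the median summit was 17.5 bp upstream, that is towards the partner gene, with quartiles of −36.3 and 66 bp. At unidirectional starts, with a single start to measure from, it was 34 bp upstream. For a pair the upstream distance cannot pass the midpoint of the interval, so the 2 medians are not like for like. The side carried no preference that could be seen, with 319 summits towards the plus-strand gene and 330 towards the minus-strand gene. Within a pair the summit moved between libraries by a median of 147 bp from its leftmost to its rightmost position, so its side was the same in all 6 libraries for 244 pairs. For pairs more than 500 bp apart the side was the same in 36 of 45. In these wide intervals the median summit lay 260 bp from the midpoint.

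**Figure D3:**
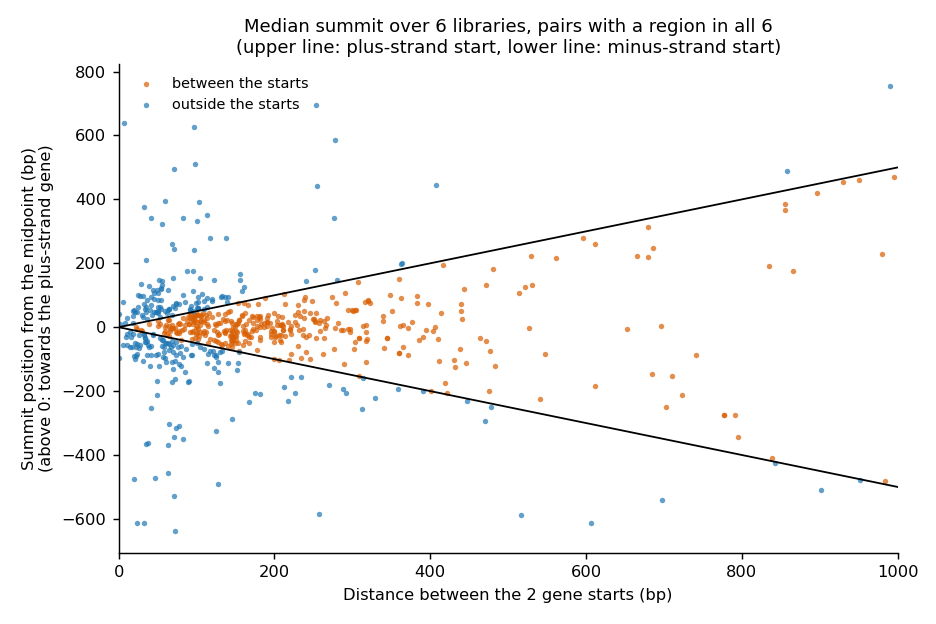
Summit position (bp from the midpoint, median of 6 libraries, positive towards the plus-strand gene) against the distance between the starts (bp), 1 point for each of 651 pairs. The lines mark the 2 starts. Of the points, 381 lie between the lines, and above 500 bp the median point lies 260 bp from the midpoint.

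The members called in all 6 libraries spanned a wide range of openness. Their mean summit pileup ran from 14.8 to 151 reads, with a median of 39.1 and deciles of 21.6 and 81.2. The highest mean −log10 q belonged to PDCD10/SERPINI1 (chr3:167452186-167453658), a pair of a gene of vascular integrity and the gene of neuroserpin. Its pileups were 152 and 136 reads in the old-buffer libraries, 160 and 148 in those of the purified new buffer and 165 and 147 in the unpurified ones, so that the protocols overlapped. FHIP1B/CNGA4 (chr11:6255652-6256668) followed, with 131, 114, 127, 126, 134 and 134 reads in the same order. CNGA4 encodes a channel subunit of olfactory neurons, and the 2 starts enclose 53 bases of DNA. KCTD9/CDCA2 and ATAD2/NTAQ1 on chromosome 8 were also among the 5, with 109 to 150 and 86 to 115 reads.

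Of 26 gene pairs that are textbook cases of head-to-head genes, 14 were members. The other 12 did not meet the rule, since COL4A5 and COL4A6 lie on the X chromosome and the records of the rest overlap at their 5′ ends. Among the members with a role in DNA repair, ATM/NPAT (starts 406 bp apart) had 76 and 83 reads in the old-buffer libraries, 87 and 78 in those of the purified new buffer and 98 and 91 in the unpurified ones. ATM encodes the kinase that senses double-strand breaks and NPAT a coactivator of histone genes. WRN/PURG, with the helicase of Werner syndrome, had 39, 49, 55, 48, 49 and 50 reads. RECQL/GOLT1B, with another helicase and the 4 CCAAT boxes printed above, had 79, 69, 87, 78, 71 and 77 reads. TOP3A/SMCR8, with a topoisomerase, was lower at 32, 28, 31, 19, 29 and 28 reads. Over the 6 libraries the ranges of RECQL/GOLT1B and ATM/NPAT overlapped, WRN/PURG lay below both, and TOP3A/SMCR8 lay below WRN/PURG.

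Pairs of metabolism and protein handling spread as widely. PPAT/PAICS, whose products act in the same pathway of purine synthesis, had 91, 66, 91, 78, 84 and 93 reads. TCP1/MRPL18, a chaperonin subunit and a mitochondrial ribosomal protein, had 84, 64, 87, 82, 87 and 84 reads. SARS2/MRPS12, a mitochondrial tRNA synthetase and a mitochondrial ribosomal protein, had 39, 26, 33, 37, 34 and 33 reads. SIRT3/PSMD13, a mitochondrial deacetylase and a proteasome subunit, was near the bottom at 21, 22, 21, 24, 27 and 23 reads. The median summit of its region was −365.5 bp from the midpoint, on the SIRT3 side, and moved by 571 bp between libraries. The purine and chaperonin pairs lay above the other 2 in every library. PREPL/CAMKMT, the genes of a peptidase-like protein and of the calmodulin methyltransferase, had 35, 27, 26, 25, 23 and 38 reads, also below the purine and chaperonin pairs throughout.

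**Figure D4:**
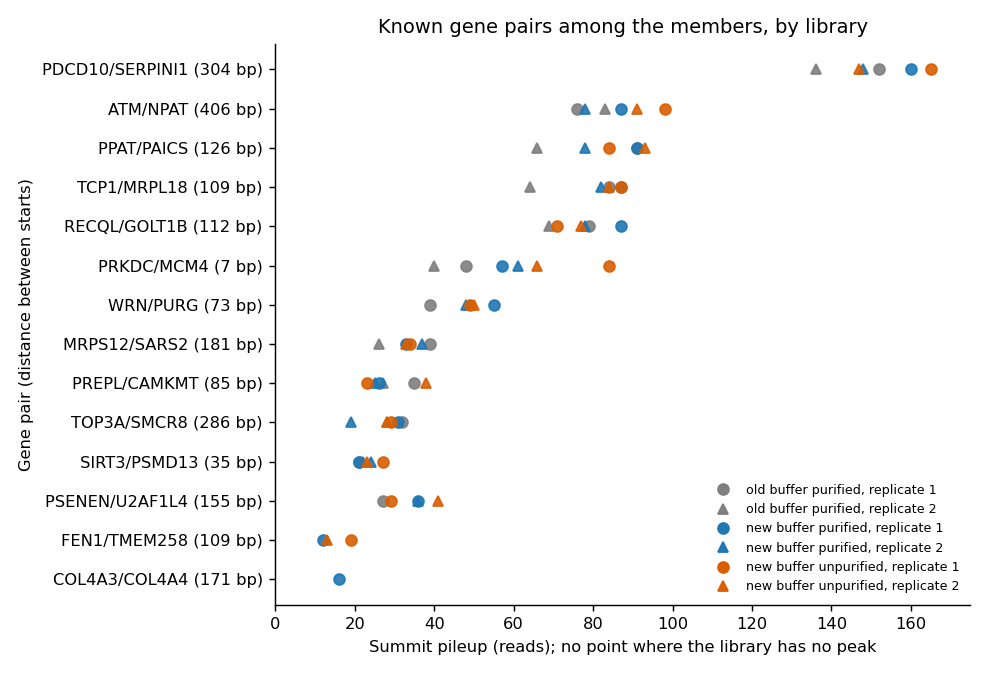
Summit pileup (reads) of the 14 known gene pairs among the members, 1 point for each library, with the distance between the starts after each name. PDCD10/SERPINI1 lies apart at 136 to 165 reads, and FEN1/TMEM258 and COL4A3/COL4A4 have a point in 3 and in 1 library.

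A few known pairs were called in part of the libraries. PSENEN/U2AF1L4, with a subunit of gamma-secretase, had a peak in all libraries but replicate 2 of the old buffer, at 27 to 41 reads, and its region served 4 annotated pairs. FEN1/TMEM258, with the flap endonuclease of DNA replication, had 12 reads in replicate 1 of the purified new buffer and 19 and 13 reads in the unpurified libraries, and no peak in the other 3. COL4A3/COL4A4, genes of basement membrane collagen, had a peak in replicate 1 of the purified new buffer alone, with 16 reads. The lists hold only peaks past the threshold of the caller, so a site with no peak has no value and cannot be called closed.

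Gene groups differed in how often they use this arrangement. Core histones and DNA repair genes had the highest shares of the 14 lists. Of 78 core histone genes 23 (29.5%) were in divergent coding pairs, and of 136 DNA repair and damage signalling genes 40 (29.4%), against 8.61% of all coding genes. DNA replication had 12 of 48 genes (25%), respiratory chain subunits and assembly factors 28 of 115 (24.3%), and mitochondrial ribosomal proteins 17 of 78 (21.8%). Cytosolic ribosomal proteins, with 10 of 79 (12.7%), proteasome subunits, with 6 of 49 (12.2%), cell division, with 12 of 70 (17.1%), and tRNA synthetases, with 3 of 35 (8.57%), were nearer to the background. Zinc finger genes were below it, with 30 of 503 (5.96%), as were collagens (2 of 42), antigen presentation (1 of 27) and olfactory receptors (3 of 414), and none of 149 keratin genes was in a pair. These shares describe the annotation and carry no test.

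Among the histone pairs, 10 of 12 had a peak in all 6 libraries (72.2% of all pairs), H3C7/H2BC9 had one in 4, and H2AC1/H2BC1, the pair of testis histones, had none. H2AC14/H2BC14, whose sequence is printed above, had 26, 29, 31, 27, 29 and 32 reads. H2BC21/H2AC20, in the histone cluster on chromosome 1, had 55, 51, 52, 43, 47 and 49 reads, above H2AC14/H2BC14 in every library. In the 10 histone regions a CCAAT box lay within the 200 bp around the summit in 9 and a TATA box in 5, where 37.9% and 1.94% of all members had them. The CCAAT box was also present in 72.7% of the 11 replication regions, 60% of the 5 proteasome regions and 55.6% of the 36 repair regions, and these shares carry no test.

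DNA repair genes were in 42 pairs, of which 29 had a peak in all 6 libraries, 9 in some and 4 in none, beside 72.2% of all pairs with a peak in all 6 and 10.8% with none. MRE11/ANKRD49, with a nuclease that processes broken ends, had 76, 67, 73, 63, 77 and 63 reads, and LIG4/ABHD13, with the ligase of end joining, had 60, 46, 71, 33, 63 and 65. The median over the list's 31 regions called in all 6 libraries was 44.8 reads, against 39.1 over all members. DNA replication had 10 of 12 pairs in all 6 libraries, on few pairs. PCNA/CDS2, with the sliding clamp, had 69, 49, 66, 64, 68 and 68 reads, more than POLE/PXMP2, with a replicative polymerase, at 28, 20, 35, 25, 34 and 30. In 8 of the 11 replication regions a CCAAT box lay near the summit, and in 11 of 11 a GC box. Of all members 37.9% and 69% had them, and this was not tested.

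Some genes of the mitochondrion were paired with each other. MRPL47/NDUFB5, a mitochondrial ribosomal protein and a subunit of complex I, had 58, 38, 48, 43, 55 and 51 reads. Mitochondrial ribosomal proteins had 13 of 18 pairs open in all 6 libraries and respiratory genes 22 of 29, beside 72.2% of all 859 pairs. An NRF1 core lay near the summit in 4 of 14 and 7 of 24 of their regions, 28.6% and 29.2%, where 7.92% of all members had one. NRF1 is a regulator of nuclear genes of the respiratory chain. Cytosolic ribosomal proteins had 8 of 10 pairs in all 6 libraries with a median of 27.4 reads, the lowest of the lists with 5 or more regions. An ETS core lay near the summit in 4 of their 10 regions, where 22.6% of all members had one, and this was not tested. The single pair of antigen presentation, PATL2/B2M on chromosome 15, with the light chain of MHC class I, had 23, 22, 22, 24, 27 and 27 reads. Neither of the 2 olfactory receptor pairs had a peak.

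The 93 pairs with no peak differed in sequence from those with one. Of these, 55.9% were CpG-rich in the 500 bp around the midpoint (GC of at least 50% and an observed over expected CpG ratio of at least 0.6), against 95.9% of the 146 pairs called in 1 to 5 libraries and 95.3% of the 620 called in all 6. The median ratio of observed to expected CpG was 0.671, 0.822 and 0.854 in the same order, while the median GC content was 61.8%, 64.1% and 64%. The 5 closest pairs with no peak and named genes on both sides were FAM227A/CBY1, PTPN3/PALM2AKAP2, MRPL27/EME1, SYNJ2BP/ADAM21 and PLCZ1/CAPZA3, with starts 7, 12, 13, 17 and 19 bp apart. PLCZ1 and CAPZA3 are genes of sperm, whereas MRPL27 encodes a mitochondrial ribosomal protein and EME1 a subunit of a nuclease that resolves DNA junctions.

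No difference between the 3 protocols in the share of open pairs passed the test, which 2 libraries a group cannot pass at 0.05. Pairs with a peak made up 80.3% ± 3.13 in the old-buffer libraries, 82% ± 2.63 in those of the purified new buffer and 83.9% ± 0.823 in the unpurified ones (SD, 2 libraries a group). The unpurified libraries were 3.61 points above the old buffer (exact permutation p = 0.33, the smallest that 2 against 2 can give) and 1.98 points above the purified new buffer (exact permutation p = 0.667), and the purified new buffer was 1.63 points above the old buffer (exact permutation p = 0.667). Each value moved with single libraries. The first was 1.40 points without replicate 2 of the old buffer and 5.82 without its replicate 1. The difference between the new-buffer protocols was 0.116 points without replicate 2 of the purified new buffer and 3.84 without its replicate 1. The purified new buffer minus the old buffer was 3.84 points without replicate 1 of the old buffer and 3.49 without replicate 2 of the purified new buffer, and it turned to −0.582 points without replicate 2 of the old buffer, to −0.233 points without replicate 1 of the purified new buffer and to −0.582 points when the summit had to lie between the starts. All 3 adjusted p were 0.667.

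Few members were present with 1 protocol and missing with another, that is called in both libraries of the first and in neither of the second. The unpurified protocol had 8 of 715 against the old buffer (1.12%, where 2.4% of all regions were specific in this way), and the old buffer had 2 of 715 against it (0.280%, background 2.82%). The purified new buffer had 6 of 710 against the old buffer (0.845%, background 1.83%) and the old buffer 2 of 710 against it (0.282%, background 3.2%). Between the new-buffer protocols there were 4 of 715 each way (0.559%), with backgrounds of 2.7% for the unpurified and 1.76% for the purified libraries. The members lay below the background each time, and 84.4% of them were called everywhere. So were 83.7% of regions at noncoding pairs and 73.4% of regions at unidirectional starts. Protocol-specific shares were not taken for those promoter classes, so the low shares cannot be called particular to bidirectional promoters. The small counts moved with the threshold, for example from 2 to 6 for the old buffer against the purified new buffer with a −log10 q of at least 5.

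The strongest of them were weak peaks. OXLD1/CCDC137, the strongest specific to the unpurified against the old buffer, had 17 and 20 reads without purification, 13 reads in replicate 2 of the purified new buffer and no peak in the other 3 libraries. RGS19/OPRL1, a regulator of G protein signalling and a nociceptin receptor, had 28, 19, 15 and 19 reads in the 4 new-buffer libraries and no peak with the old buffer. AREL1/FCF1 had 16 and 14 reads with the old buffer, no peak in the purified new buffer and 14 reads in replicate 2 of the unpurified libraries. NPIPB2/SNX29, where NPIPB2 belongs to a family of near-identical copies whose reads can be split, had 20 and 21 reads without purification, 16 in replicate 2 of the old buffer and no other peak. ATXN7L1/CDHR3 had 23 and 15 reads in the purified new buffer, 15 in replicate 1 of the old buffer and no other peak. At CDCA3/USP5 a second, smaller region next to the main one had 23 and 26 reads with the old buffer and no peak elsewhere, while the main region of the same pair was called in all 6 libraries with 42 to 64 reads.

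Among the 608 members called everywhere, none passed the test for a difference in summit pileup between protocols. A limma fit with trend on log2 pileup per relative depth, over all 20064 regions called in 6 libraries, called 0 of 608 members at an adjusted p of 0.05 in each of the 3 contrasts. It called 4 of all regions (0.0199%) between the unpurified protocol and the old buffer, 4 (0.0199%) between the purified new buffer and the old buffer, and 0 (0%) between the new-buffer protocols. With an unadjusted p under 0.05 there were 26, 53 and 36 members in the same order, beside 1151, 1531 and 1151 of all regions. The median log2 difference of the members was 0.03, 0.16 and −0.13, and that of all regions −0.03, 0.08 and −0.12, with a median standard error of 0.23 for a single member. These medians moved with the scaling of depth, as given further below. PRKDC/MCM4, the genes of a DNA repair kinase and of a subunit of the replicative helicase, with starts 7 bp apart, had the smallest p of the members between the unpurified protocol and the old buffer. Its pileups were 48 and 40 reads with the old buffer, 57 and 61 with the purified new buffer and 84 and 66 without purification, so the groups did not overlap. These are reads at a summit outside the interval between the starts. The median summit of this region lay 639.5 bp from the midpoint, on the MCM4 side, and moved by 88 bp between libraries. The log2 difference was 0.61 with a standard error of 0.18, and the adjusted p by limma was 0.524.

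Most starts in bidirectional pairs lay in CpG-rich sequence. CpG-rich starts made up 89.6% of genes in bidirectional coding pairs, 89.3% of coding genes paired with a noncoding RNA and 50.7% of unidirectional genes. Pairs with a GC content under 65% had a peak less often than the others in 5 of 6 libraries, and the difference did not pass the test (mean of lower GC minus higher −0.728 points, SD 0.943, exact sign-flip permutation test over 6 libraries, p = 0.156).

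Motif cores were counted on both strands in the 200 bp around the median summit of each region. A GC box was present in 69% of members, 73.9% of regions at noncoding pairs, 69.2% of regions at unidirectional starts and 19.4% of all autosomal regions. A CCAAT box was present in 37.9%, 34.9%, 31.3% and 25.1% in the same order. The ETS core was present in 22.6%, 19.1%, 16.5% and 4.34%, and the NRF1 core in 7.92%, 5.46%, 5.29% and 1.29%. By contrast the TATA box (TATAAA), at 1.94% of members, the RUNX core (TGTGGTT), at 2.22%, and the AP-1 core (TGACTCA), at 0.278%, were rarer than in all autosomal regions, with 9.22%, 10.7% and 10.7%. They were also rarer in the other 2 promoter classes. Regions at noncoding pairs had 1.75%, 1.36% and 1.17%, and regions at unidirectional starts 2.41%, 2.02% and 1.63%. At least 1 of the 4 cores named first was present in all but 94 of the 720 members. The PU.1 core (GGAAGTG), which can overlap the ETS core, was present in 16.9% of members and 8.70% of all regions. It was present in 15.3% of regions at noncoding pairs and 11.5% of regions at unidirectional starts.

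The CCAAT box was unevenly spread among the members. It was present in 42.4% of members called in all 6 libraries and in 13.4% of those called in 1 to 5, whereas the ETS core was present in 22.5% and 23.2% and the GC box in 70.2% and 62.5%. The NRF1 core was present in 8.55% and 4.46%, and the E box (CACGTG) in 10% and 5.36%. The RUNX core went the other way, with 1.81% and 4.46%, as did the YY1 core (ATGGCGGC), with 4.28% and 6.25%. Within the members called everywhere, the 258 with a CCAAT box had a median pileup of 44.4 reads and the 350 without one had 36.3. The 137 with an ETS core had 39.7 reads and the 471 without it 39. Higher medians also went with the CRE, at 47.25 reads in 22 members against 38.6 without it. For the PU.1 core they were 44 reads in 108 members against 38.3. Lower medians went with the YY1 core, at 28.9 reads in 26 members against 40.2, and with the GC box, at 38.3 against 40.2. None of these differences was tested. A match shows only that these letters are in the window.

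The chromosome a pair lay on went with how often it was open. All 6 libraries had a peak at 7 of 15 pairs on chromosome 22 (46.7%), at 28 of 58 on chromosome 17 (48.3%) and at 37 of 74 on chromosome 19 (50%). On chromosome 13 this was so for 15 of 16 pairs (93.8%), and on chromosomes 4 and 7 for 29 of 32 each (90.6%). The reads at the summits went with this share, though not in the same order. The median pileup of member peaks was 22 reads on chromosome 22 and 27 and 28 reads on chromosomes 17 and 19, but 55 reads on chromosomes 13 and 18 and 58.5 reads on chromosome 8. Chromosome 22 was lowest in 5 of 6 libraries and level with chromosome 20 in replicate 2 of the purified new buffer, with medians of 21 to 23.5 reads, and the order of the 22 chromosomes had Spearman correlations of 0.850 to 0.960 between libraries. The local background at these peaks ran from 2.58 reads on chromosome 22 to 6.87 on chromosome 8, so that the median fold enrichment moved less, from 6.47 to 8.73. Peaks at unidirectional starts had a median of 22 reads on chromosome 22 and 39 on chromosome 8.

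Across the 22 autosomes the share of pairs open in all 6 libraries had a Pearson correlation of 0.853 with the median pileup of member peaks, 0.803 with their local background, −0.660 with the number of coding genes per Mb and −0.0710 with the median GC content of the pairs. It was 0.795 with the share of CpG-rich unidirectional starts open in all 6 libraries. The points share libraries and depth, and several chromosomes hold few pairs, such as chromosome 21 with 6. The part of gene density and of local background in these shares was not tested.

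**Figure D5:**
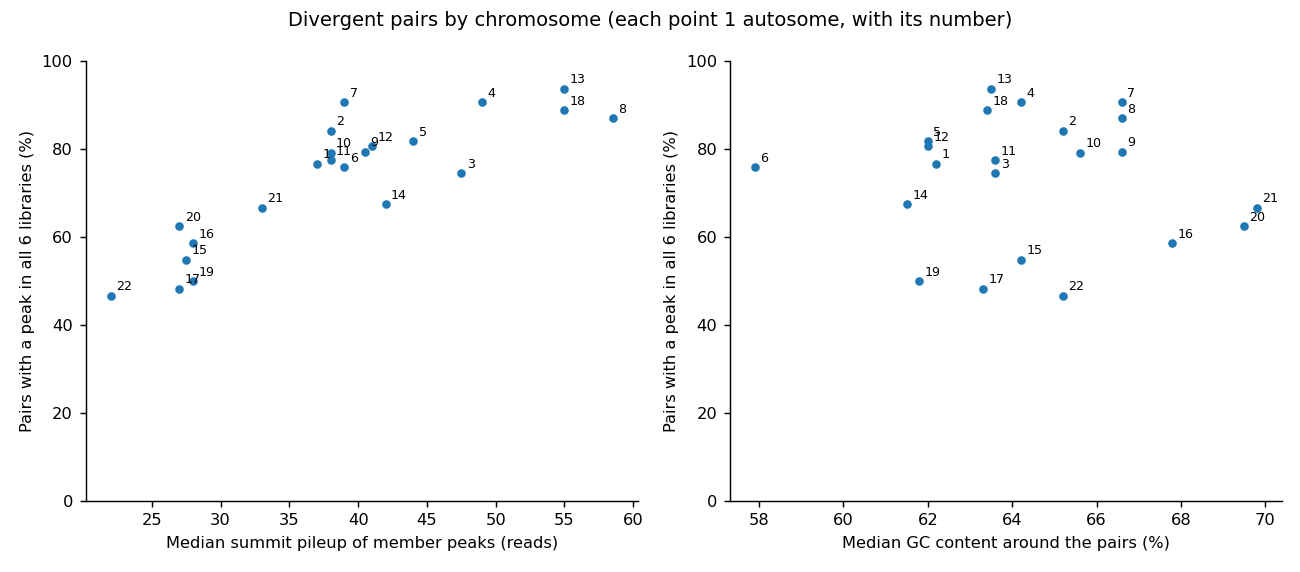
Share of gene pairs with a peak in all 6 libraries (%) against the median summit pileup of member peaks (left, reads) and the median GC content of the 500 bp around the pairs (right, %), 1 point for each autosome with its number. Chromosomes 15, 16, 17, 19, 20 and 22 lie lowest in both share and pileup, while on the right the points show no order.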

How the data were processed

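Per the labels, open chromatin of PFA-fixed GM12878 cells was profiled in 6 libraries, 2 for each of 3 reverse crosslinking protocols. The submitters' processing notes name Bowtie2 2.1.0, Picard 1.79, MACS2, DESeq and hg19, with no version for MACS2. The authors deposited 1 peak list per library, in which each peak has a score, a fold enrichment over local background, a −log10 p-value, a −log10 q-value and a summit. The lists hold peaks past a q-value of 0.01, so a weaker site has no value. Local background and whole-read summit pileup were solved from the deposited fold and −log10 p. A region's pileup in a library is that of its highest peak there, whose summit can lie outside the interval between the starts.

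Lists were merged and set against GENCODE version 44 lifted to GRCh37 with custom code, which was checked against bedtools 2.31.1 on simulated intervals. A gene's start is the outermost base of its record, and 1897 coding genes fell in no class. Shares between protocols were compared by exact two-sided permutation tests, gene classes by exact sign-flip tests over 6 libraries, each adjusted by Benjamini-Hochberg within its family, and pileups by limma 3.58.1 over all regions. The limma fit was tested on simulated data, and the permutation tests were checked only for the smallest p they give. Same-numbered replicates did not deviate together over the members, with correlations of −0.0406, −0.00107 and 0.0545, so no pairing was used. Correlations over regions cannot show a shift shared by a whole library, so they do not settle pairing for the share of pairs with a peak. The replicate block is given below as an alternative. Intervals and pileups carry counting error only. The genes named are the 5 members of highest mean −log10 q, the strongest specific to each protocol, members past the limma threshold (none), the textbook pairs, the closest and widest pairs, the 5 closest pairs with no peak, and examples from the gene lists chosen after values were seen. Members and gene lists were chosen with earlier results of these data known. Some results that this rule names are not reported here.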

Additional observations from a re-analysis of the deposited data

How the results depend on the processing

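The median pileup against noncoding pairs, −0.0833 reads, turned to 0.583 with starts at most 300 bp apart, to 2.33 when the summit had to lie between the starts and to 0.1 without replicate 1 of the unpurified protocol (range −0.1 to 0.1 with 1 library left out), and was −1.17 and passed the test with overlapping 5′ ends added. That addition brought the starts in a peak against noncoding pairs to 1.14 points, which no longer passed, and the width to 7.75 bp, which did. The width against noncoding pairs also passed with the summit rule, at 33.9 bp, and over regions called in all 6 libraries, at 11.3 bp, an alternative chosen after seeing the data like those on CpG-rich starts and on peaks of equal pileup. The purified new buffer minus the old buffer turned to −0.582 with the summit rule, and ran from −0.582 to 3.84 points with 1 library left out. The unpurified protocol ran from 1.40 to 5.82 points against the old buffer and from 0.116 to 3.84 against the purified new buffer.

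With 1 library left out, the smallest possible exact permutation p is 0.0625, so the comparisons of gene classes could not pass. They ran from 46.8 to 47.4 and from 9.09 to 9.64 points for starts against unidirectional genes and noncoding pairs, from 89.5 to 94.7 bp for width and from 5.6 to 6.2 reads for pileup against unidirectional starts, and from 9.7 to 14.5 bp for width against noncoding pairs.

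Members specific to the old buffer went from 2 to 1 against the unpurified protocol, and from 2 to 6 against the purified new buffer, with −log10 q of at least 5, to 0 and 5 with 30136 peaks per library, and to 1 and 1 at 300 bp. Between the new-buffer protocols, 4 for the unpurified became 7 and 8, and 4 for the purified 1 and 2, under the first 2 of these.

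In the replicate block, the paired differences in the share of open pairs were 0.815 and 6.40 points (unpurified minus old), 1.28 and 1.98 (purified new minus old) and −0.466 and 4.42 (unpurified minus purified new), with exact permutation p of 0.5, 0.5 and 1, where 0.5 is the smallest possible. By limma, 0 members were called under every alternative run, with 33, 67 and 49 members of 608, and 1281, 1761 and 1352 of all 20064 regions, at an unadjusted p under 0.05 in the block. The smallest adjusted p of a member, 0.0837, came with equal median pileups. In that setting the median log2 difference of the members was 0.106, 0.105 and 0.00458 in the same order, and that of all regions 0.0443, 0.0314 and 0.0140. By limma, 63, 51 and 19 members, and 1693, 1722 and 866 of all regions, then had an unadjusted p under 0.05. At weak peaks 1 list can miss a region that another holds, and the part of depth in this was not tested.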

Other observations

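Head-to-head genes whose records overlap at the 5′ end fell outside the rule, and some were open in every library. At HSPD1/HSPE1, the mitochondrial chaperonin and its cofactor, the records overlap by 16597 bp, 2 regions lay between the recorded starts, and the HSPD1 start lay in a peak in 0 of 6 libraries. The region at the HSPE1 start had summit pileups of 62 and 61 reads with the old buffer, 73 and 67 with the purified new buffer and 85 and 78 without purification. HARS1/HARS2, the cytosolic and mitochondrial histidyl-tRNA synthetases, had 46, 42, 41, 35, 41 and 43 reads in the same order, with an overlap of 107 bp. COL4A1/COL4A2, genes of basement membrane collagen, and SURF1/SURF2 had no region between their starts.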
